A study of Caenorhabditis elegans with 10 samples.

Results

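Fasted adults of 2 Caenorhabditis elegans strains, one labelled mek-1 and one labelled mlk-1, were compared on 5 one-colour arrays, 3 of mek-1 fasted and 2 of mlk-1 fasted animals, chosen by their titles from the 10 arrays of the study. The remaining 5 arrays hold fed mek-1 (3) and fed mlk-1 (2) animals and were used only to ask whether a strain difference depended on food. All animals were synchronized and moved on day 2 of adulthood to a new plate. The fasted plates had no OP50-1, the Escherichia coli strain that serves as laboratory food, and the fed plates had it. RNA was extracted from whole animals 2 days later, on day 4 of adulthood. The labels give mek-1 or mlk-1 as the genotype, with no allele. No wild-type array is used here, so a difference does not show which strain departs from normal worms. The labels do not say whether replicates are separate cultures, and p-values then measure only the spread between these arrays, which may be technical.

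MEK-1 and MLK-1 belong to 1 signalling chain. MLK-1, a kinase near the top of a JNK-type stress cascade, phosphorylates MEK-1, which in turn phosphorylates the JNK-like kinase KGB-1, and the phosphatase VHP-1 switches KGB-1 off. The cascade is known for resistance to heavy metals and to protein-folding stress and for regrowth of cut axons. MEK-1 also acts beside SEK-1, the kinase directly above the p38-type kinase PMK-1, which drives immune gene expression in the intestine. Setting mutants of the 2 kinases side by side without food asks where their RNA differs although the kinases act one after the other.

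Values below are log2 of the deposited linear intensity of a probe set, and differences are mek-1 minus mlk-1, with the standard error of the fit. A probe set was called different at an adjusted p under 0.05. All 22548 probe sets other than the array controls were tested. In fasted animals 55 probe sets were higher in mek-1 (0.244%) and 366 were lower (1.62%), together 421 (1.87%). Of these, 204 also differed at least 2-fold (0.905%). Over all probe sets, 6642 (29.5%) had every array of 1 strain above every array of the other. Such a gap, given for several genes below, does not by itself set a gene apart. The 5 arrays had medians between 70.5 and 74.9 linear units, and the median difference over all probe sets was 0.00. On the first principal component, which held 50.6% of the variance, the mek-1 arrays lay at -14.4, -5.83 and -32 and the mlk-1 arrays at 25.9 and 26.3. The mek-1 fasted 3 array stood apart from the other mek-1 arrays on the second component (22.1, against -13.9 and -22.6). Without it, 105 probe sets were higher and 450 lower, so it did not carry the calls. The calls rested on the pair of mlk-1 arrays. Dropping the first of them gave 5 higher and 47 lower, and dropping the second gave 10 higher and 33 lower, with the lone array then assumed to vary like the mek-1 arrays. Dropping mek-1 fasted 1 instead gave 15 higher and 125 lower.

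**Figure D1:**
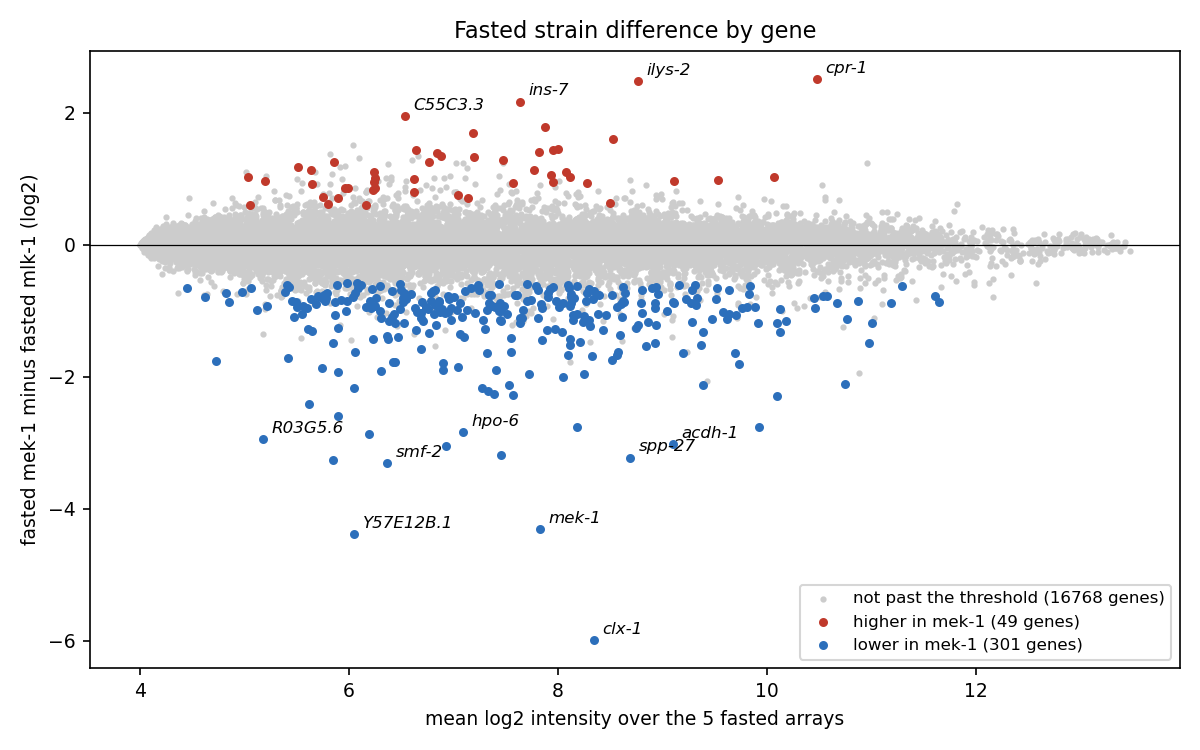
Strain difference in fasted animals (log2, mek-1 minus mlk-1, vertical axis) against mean level over the 5 arrays (log2, horizontal axis), 1 point per gene by 1 probe set, with called genes coloured by direction. Most of the called genes lie below 0 (301 of 350), and clx-1, Y57E12B.1 and mek-1 lie lowest among the labelled genes.

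The mek-1 gene itself read 6.08, 6.05 and 6.18 in fasted mek-1 animals, against 10.40 and 10.44 in fasted mlk-1 animals. The groups were far apart, and the difference was -4.31 ± 0.11 (adjusted p = 7.6e-06), or 19.9-fold lower in mek-1. A further probe set, 191720_at, which the annotation pairs with several genes including mek-1, differed by -2.81 ± 0.12 (adjusted p = 5.48e-05). The mlk-1 gene read 7.37, 7.39 and 7.0 in mek-1 animals and 7.54 and 7.86 in mlk-1 animals, so every mlk-1 array lay above every mek-1 array, and its difference of -0.44 ± 0.17 did not pass the test (adjusted p = 0.301). Its other probe set behaved alike (-0.46, adjusted p = 0.268). Where the probes lie relative to the mlk-1 lesion is not known here, and a probe outside a lesion does not check a genotype, so the mlk-1 signal neither bears out nor contradicts that label.

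Signal of a second kinase region was also low in the arrays labelled mek-1. The 2 probe sets of sek-1 disagreed. Probe set 192392_at read 8.45, 8.07 and 8.11 in mek-1 and 7.90 and 7.65 in mlk-1 animals, a difference of 0.43 ± 0.16 (adjusted p = 0.288). Probe set 175279_s_at read 4.89, 5.17 and 5.35 in mek-1 and 8.33 and 8.39 in mlk-1 animals, a difference of -3.22 ± 0.15 (adjusted p = 9.04e-05). The first thus had no called change and lay, if anything, higher in mek-1 while the second was clearly lower in every mek-1 array. In fed animals the second probe set read 4.84, 4.84 and 4.86 in mek-1 and 7.93 and 8.01 in mlk-1 (-3.12, adjusted p = 0.000521). R03G5.6, the neighbour of sek-1 in the gene order of chromosome X, read 4.00 in all 3 mek-1 arrays, which is the lowest value the table holds, against 7.04 and 6.87 in mlk-1 animals. It was therefore at least 7.74-fold lower in mek-1 (adjusted p = 3.17e-05), and its other probe set was lower too (-1.16, adjusted p = 0.0047). In fed animals R03G5.6 likewise read 4.00 on all 3 mek-1 arrays, against 6.41 and 6.59 on the mlk-1 arrays. The labels name mek-1 alone, and 54 protein-coding genes lie between mek-1 and sek-1 on X. Whether the animals labelled mek-1 also carry a lesion at sek-1 or R03G5.6 was not tested. Every difference given here is therefore one between these 2 strains and cannot be assigned to mek-1 alone, which bears above all on genes that depend on the p38 pathway.

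Lower calls were looked for along the chromosome around these genes, in the gene order of the WBcel235 assembly. Among the 45 measured genes within 25 genes of mek-1, 4 were lower in mek-1 animals, against 1.76% of all measured genes. Both counts include mek-1 itself, the centre of the window and the gene the strain is named for, so only 3 are neighbours. They were mek-1, F48E3.6 (-1.3), F46C8.3 (-0.82) and pcyt-1 (-0.61), an enzyme gene of phosphatidylcholine synthesis. Around sek-1, with each gene by its probe set of highest mean, the only called gene of 47 was R03G5.6. Around mlk-1, on chromosome V, the only one of 45 was F14F9.3, which was higher (0.79, adjusted p = 0.0395). The calls of the 3 neighbours of mek-1 were not firm. With mlk-1 fasted 2 left out they had an adjusted p of 0.145 (F48E3.6), 0.179 (F46C8.3) and 0.287 (pcyt-1), and with mek-1 fasted 1 left out of 0.0872, 0.081 and 0.14. F14F9.3 likewise lost its call without mlk-1 fasted 1 (0.285), mlk-1 fasted 2 (0.222) or mek-1 fasted 1 (0.136). By chromosome, the share of measured genes called in either direction was 0.972% on I and between 2.02% and 2.69% on II, III, IV, V and X.

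Most kinases of the JNK-type and p38-type cascades had levels that were not called different. Of 29 measured cascade genes, each by its probe set of highest mean, 2 were lower in mek-1 and 0 were higher in the limma test. The sek-1 probe set 175279_s_at, lower as given above, is not in this count. Of all 17118 measured genes 2.04% were called, 0.286% higher and 1.76% lower. The median difference of the list was -0.04, against 0.00 for all genes. The second lower gene was sek-4, which encodes a kinase of the SEK-1 family, at 6.43, 6.23 and 6.06 in mek-1 and 7.36 and 7.16 in mlk-1 animals (-1.02 ± 0.15, adjusted p = 0.0162). Its groups did not overlap, but the call was lost without mlk-1 fasted 1 (adjusted p = 0.16) or mlk-1 fasted 2 (0.122).

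KGB-1 is the kinase that both mutated genes act on. Its gene read 7.75, 7.37 and 7.43 in mek-1 and 7.78 and 7.52 in mlk-1 animals, overlapping between strains (-0.14 ± 0.16, adjusted p = 0.801). vhp-1, the phosphatase gene, read 8.96, 9.06 and 8.87 in mek-1 and 9.41 and 9.64 in mlk-1 animals. All its mek-1 arrays were below both mlk-1 arrays, yet the difference of -0.56 ± 0.13 missed the threshold (adjusted p = 0.0879). jnk-1, the other JNK gene, differed by 0.28 ± 0.12 (adjusted p = 0.383), pmk-1 by 0.07 ± 0.19 (adjusted p = 0.926) and the receptor tyrosine kinase gene svh-2, which acts upstream of MLK-1 in axon regrowth, by -0.13 ± 0.18 (adjusted p = 0.84). Apart from mek-1 and sek-4, the list by probe sets of highest mean ran from vhp-1 at -0.56 to sek-1 at 0.43. The other sek-1 probe set, at -3.22, lies outside that range.

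**Figure D2:**
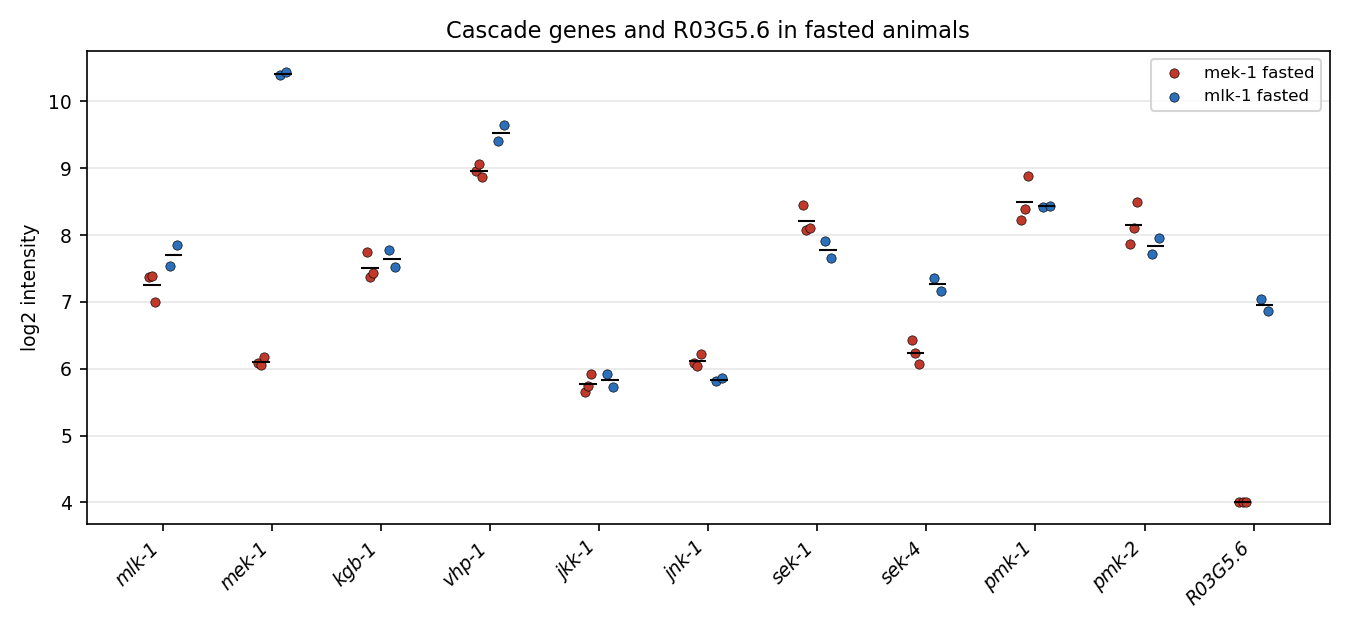
Level of 10 cascade genes and R03G5.6 (log2 intensity, 1 point per array, a dash at each group mean) in mek-1 fasted and mlk-1 fasted animals, each gene by its probe set of highest mean (for sek-1 the one not called). The mek-1 gene (-4.31) and R03G5.6 (its mek-1 arrays at the lowest value of the table) separate the strains widely, sek-4 (-1.02) less so, and kgb-1 overlaps.

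The largest difference belonged to clx-1. It read 6.04, 5.94 and 5.88 in fasted mek-1 animals, against 11.67 and 12.21 in fasted mlk-1 animals. This is a difference of -5.99 ± 0.17 (adjusted p = 7.6e-06), 63.5-fold lower in mek-1. The fed arrays of both strains lay between 5.89 and 6.20, close to the fasted mek-1 arrays, so the 2 fasted mlk-1 arrays were the high ones of all 10. Y57E12B.1 had the same pattern, with 4.38, 4.29 and 4.22 in fasted mek-1 and 8.54 and 8.83 in fasted mlk-1 animals (-4.39 ± 0.13, adjusted p = 8.84e-06), but its probe set is of the type that can match several transcripts. Y57E12B.4 read 4.55, 4.51 and 4.57 against 7.84 and 7.76 (-3.26 ± 0.11, adjusted p = 1.41e-05), and its other probe set was as clearly lower (-2.94, adjusted p = 5.11e-05). smf-2, which encodes a divalent metal transporter of the NRAMP family, read 5.03, 4.98 and 5.12 in mek-1 and 8.38 and 8.32 in mlk-1 animals (-3.31 ± 0.11, adjusted p = 1.41e-05). It was the only one of 34 metal response genes called, and that list had a median of -0.03.

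The strain difference of these genes was tested for its dependence on food in the fit of all 10 arrays. In that test 18 probe sets passed (0.0798%), 13 with a more negative difference in fasted animals (0.0577%) and 5 with a more positive one (0.0222%). With the replicate number as a block, which the arrays' deviations warrant here, 59 passed. With that block the adjusted p was 3.41e-06 for clx-1, 0.000421 for Y57E12B.1 and 7.97e-05 for both Y57E12B.4 and smf-2. It was 0.000611 for H02F09.3 and 0.0131 for ins-11. The single-gene values that follow, and the left-out arrays, are from the fit without the block. Arrays were not left out with the block in place. The difference changed by -6.01 for clx-1 (adjusted p = 4.72e-06), -4.37 for Y57E12B.1 (8.56e-05), -3.30 for Y57E12B.4 (2.49e-05) and -3.21 for smf-2 (2.49e-05). These 4 genes passed with every array left out in turn. H02F09.3, at 6.30, 5.91 and 6.34 in fasted mek-1 and 9.54 and 9.21 in fasted mlk-1 animals, changed by -2.63 (adjusted p = 0.0217), and the insulin-like peptide gene ins-11 by -2.23 (adjusted p = 0.0158). Both lost that call in some left-out arrays, for H02F09.3 at an adjusted p of up to 0.208 and for ins-11 of up to 0.0932.

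**Figure D3:**
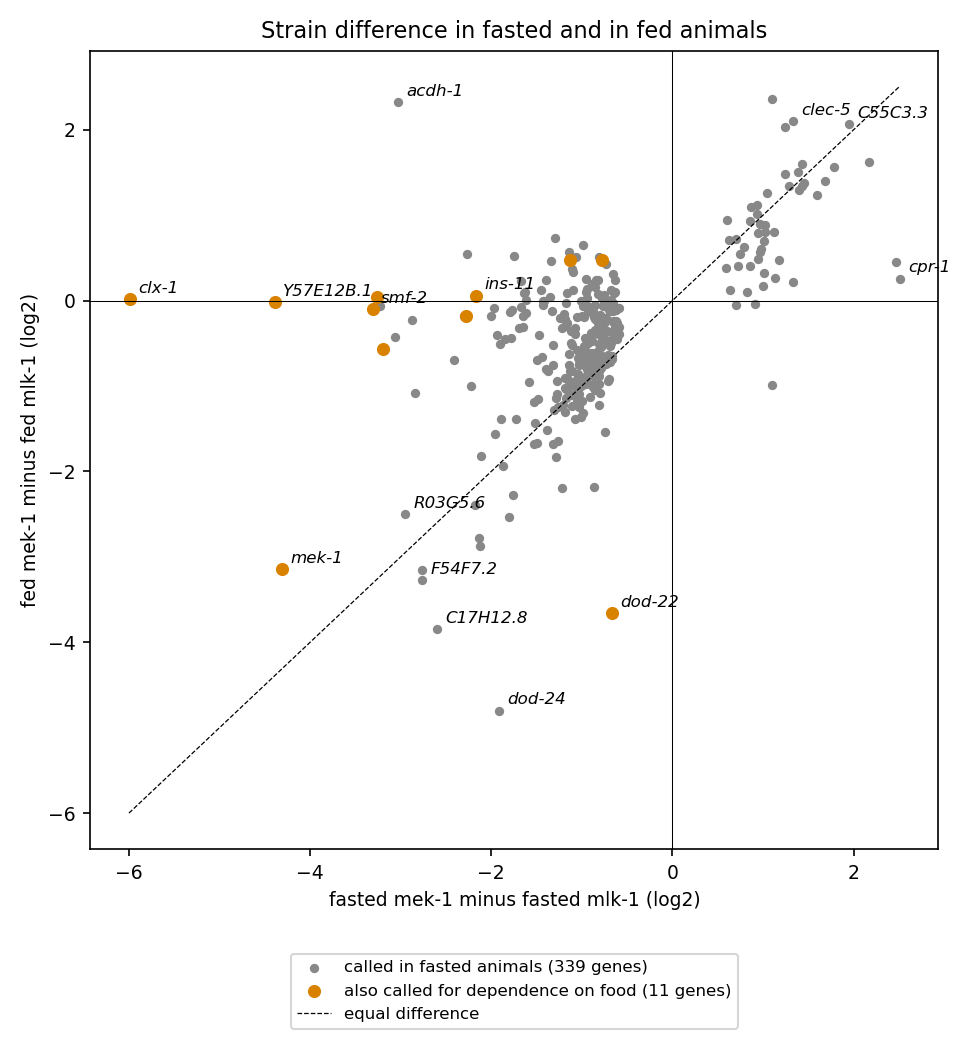
Strain difference in fasted animals (log2, horizontal axis) against the same difference in fed animals (log2, vertical axis), 1 point per gene called in fasted animals, with genes also called for dependence on food in orange and a dashed line of equal difference. clx-1, Y57E12B.1, Y57E12B.4 and smf-2 lie near 0 on the fed axis, while mek-1 and R03G5.6 are low on both.

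Of the other genes at the lower end, clec-86, a C-type lectin gene, read 6.03, 5.47 and 5.63 in mek-1 and 8.37 and 9.17 in mlk-1 animals (-3.06 ± 0.25, adjusted p = 0.00193). hpo-6 read 6.20, 6.10 and 5.57 against 8.72 and 8.87 (-2.84 ± 0.19, adjusted p = 0.000846). The groups of both genes lay more than 2 log2 units apart, and both calls held with each array left out. spp-27, a saposin-like gene of the kind that acts on membranes, read 7.06, 8.59 and 6.55 against 10.45 and 10.81, with mek-1 fasted 2 the highest of its group (-3.23 ± 0.51, adjusted p = 0.0235). acdh-1, a short-chain acyl-CoA dehydrogenase gene used as a sensor of diet, read 6.98, 8.72 and 7.96 against 10.41 and 11.42 (-3.03 ± 0.48, adjusted p = 0.0239). Its mek-1 arrays ranged over more than 1 log2 unit, below both mlk-1 arrays. In fed animals acdh-1 differed the other way (2.32, adjusted p = 0.404). Its change with food in the fit of all 10 arrays, -5.35, was not called (adjusted p = 0.185). The calls of spp-27 and acdh-1 were lost with the first mlk-1 array left out (adjusted p = 0.168 for spp-27 and 0.103 for acdh-1) or the second (0.241 for both), and that of spp-27 also with mek-1 fasted 1 left out (0.0892). T05E12.6 (-2.88 ± 0.33), C44B7.5 (-2.77 ± 0.46), F54F7.2 (-2.76 ± 0.26) and C17H12.8 (-2.60 ± 0.24) completed the 15 largest decreases. Of these, F54F7.2 and C17H12.8 kept the call with each array left out, while T05E12.6 and C44B7.5 lost it with either mlk-1 array left out (adjusted p between 0.0625 and 0.245), and C44B7.5 also with mek-1 fasted 1 left out (0.0506). Among probe sets without a single gene name, 185843_s_at had the largest decrease (-4.81, adjusted p = 0.000105).

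Fewer genes were higher in fasted mek-1 animals, and the largest increase, 2.51 for cpr-1, was smaller in size than the largest decrease, -5.99 for clx-1. cpr-1, a cathepsin B-like cysteine protease gene of the gut, read 12.16, 11.35 and 10.94 in mek-1 and 8.73 and 9.22 in mlk-1 animals (2.51 ± 0.32, adjusted p = 0.0117). ilys-2, an invertebrate-type lysozyme gene, read 9.95, 10.17 and 9.17 against 6.85 and 7.73 (2.47 ± 0.33, adjusted p = 0.0138). ins-7, an insulin-like peptide gene held down by the transcription factor DAF-16, read 8.76, 7.77 and 8.99 against 6.22 and 6.46 (2.17 ± 0.32, adjusted p = 0.0182). All 3 had every mek-1 array above both mlk-1 arrays, but a gap between the groups was required in choosing them. In either direction, 29.5% of all probe sets had such a gap. None of their calls held without mlk-1 fasted 1 or mlk-1 fasted 2, where the adjusted p ran from 0.0727 for ilys-2 to 0.191 for ins-7, and those of ilys-2 and ins-7 were also lost without mek-1 fasted 1 (0.0599 and 0.0778). Calls of C55C3.3 and cls-3 held with each array left out. C55C3.3 read 7.17, 7.26 and 7.54 in mek-1 and 5.46 and 5.29 in mlk-1 animals (1.95 ± 0.15, adjusted p = 0.00134). cls-3, a gene of the CLASP family of microtubule-binding proteins, read 9.21, 9.24 and 9.07 against 7.73 and 7.41 (1.60 ± 0.14, adjusted p = 0.00258).

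The other genes of the 15 largest increases ran from F35F10.1 at 1.79 ± 0.22 to arrd-18 at 1.28 ± 0.13. They included C04E12.4 (1.69), whose other probe set gave 1.61, the F-box gene fbxa-65 (1.45), zig-12 (1.44), the ciliary gene dyf-3 (1.43), the astacin metalloprotease gene nas-20 (1.4), C09G5.7 (1.39), C40H1.7 (1.33) and the C-type lectin gene clec-5 (1.33). Only nas-20 of these 10 kept its call with each array left out. Without mlk-1 fasted 2, the adjusted p was between 0.0656 (clec-5) and 0.328 (zig-12) for the others. Without mlk-1 fasted 1, dyf-3 and C09G5.7 also passed (0.0437 and 0.0239), and without mek-1 fasted 1 the calls of C04E12.4 (0.0657), zig-12 (0.157) and C40H1.7 (0.0727) were lost. Several of these genes had a like difference in fed animals, as with C55C3.3 (2.07), arrd-18 (1.35), fbxa-65 (1.38), C09G5.7 (1.51) and clec-5 (2.1), each of which was called there. cpr-1 and ilys-2 had fed differences of 0.26 and 0.45, but the change with food was not called for either (adjusted p = 0.943 and 1). The largest increase among probe sets with no single gene name was 184634_s_at (1.15, adjusted p = 0.0366).

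**Figure D4:**
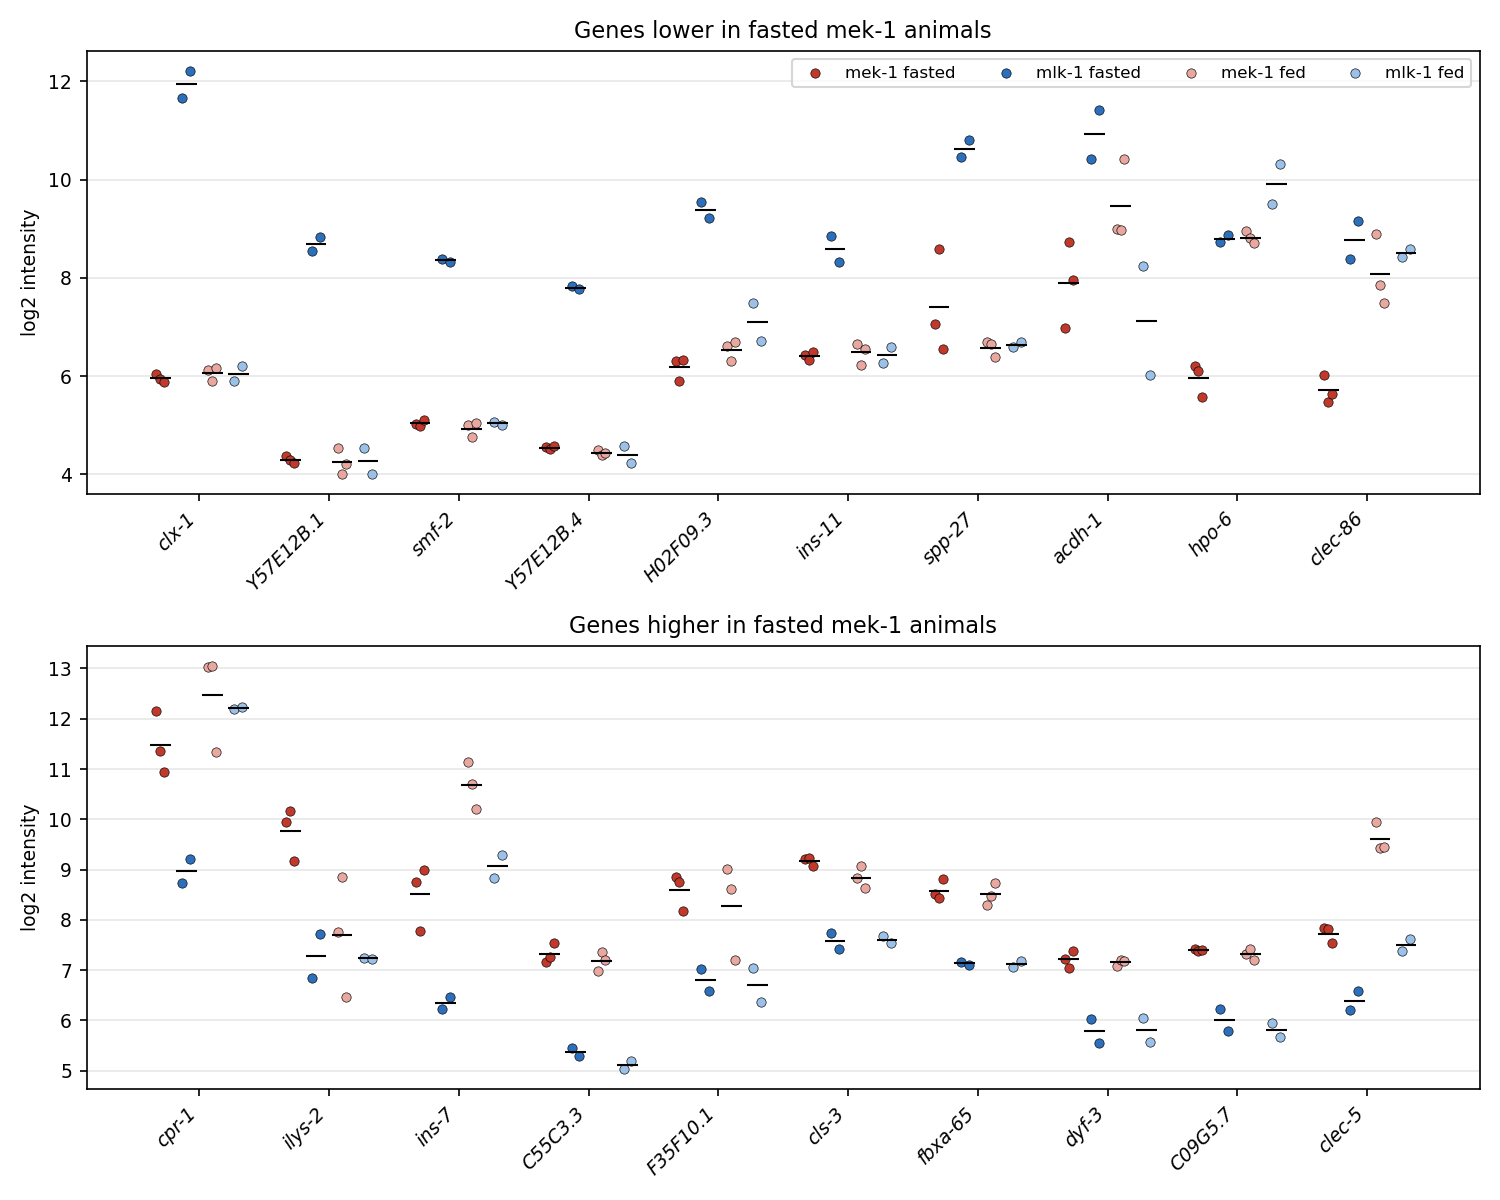
Level (log2 intensity, 1 point per array, a dash at each group mean) of 10 genes lower and 10 genes higher in fasted mek-1 animals, in mek-1 fasted, mlk-1 fasted, mek-1 fed and mlk-1 fed animals. In every gene shown the 3 fasted mek-1 arrays lie on one side of the 2 fasted mlk-1 arrays. Such a gap was required in choosing all of these genes but ins-11, and 29.5% of all probe sets had it.

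The fed contrast has its own arrays and shares none with the fasted one, but same-numbered fed and fasted arrays of a strain deviated together (r between 0.320 and 0.639), so the contrasts are not fully independent. In fed animals, 8 probe sets were higher in mek-1 (0.0355%) and 28 lower (0.124%). Of the 55 probe sets higher in fasted mek-1 animals, 6 were also called higher in fed ones, which is 10.9% of the fasted list and 75% of the fed list, and 51 had the same sign (92.7%, against 60.3% of all probe sets). Their median difference was 1.02 in fasted and 0.79 in fed animals. Of the 366 lower probe sets, 21 were also called lower in fed animals, or 5.74% of the fasted and 75% of the fed list, and 313 had the same sign (85.5%), with medians of -0.97 in fasted and -0.57 in fed animals. mek-1 (-3.15 in fed animals) and R03G5.6 (at least 5.67-fold lower in fed mek-1, whose arrays are at the lowest value of the table) were called in both.

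The CUB-like and p38-dependent immune genes form a group that PMK-1 signalling is known to keep on in the gut. Members of this and the lists below were chosen with earlier results of these data known, so shares beside all genes only describe them. Of 28 measured members, 10 were lower in fasted mek-1 animals (35.7%, against 1.76% of all genes) and 0 higher (0.286% of all genes), and 22 had a negative difference, with a median of -0.68, against 0.00 for all genes. C17H12.8, a CUB-like gene, read 4.63, 4.95 and 4.99 in mek-1 and 7.02 and 7.88 in mlk-1 animals. clec-85, a C-type lectin gene that depends on PMK-1, read 6.73, 7.12 and 6.98 against 8.71 and 9.09 (-1.96 ± 0.17, adjusted p = 0.00229), and dod-24 read 5.3, 5.35 and 5.98 against 7.43 and 7.49 (-1.92 ± 0.21, adjusted p = 0.00656). In each of the 3, all mek-1 arrays were below both mlk-1 arrays, a gap that 29.5% of all probe sets had in either direction. F01D5.1 (-1.73) and the lysozyme gene lys-2 (-1.62) were also lower. irg-4, a CUB-like gene, was not called in fasted animals (0.04, adjusted p = 0.936). The list's median in fed animals was -0.98, and dod-24 differed there by -4.80 (adjusted p = 0.0067). Dropping the first or the second mlk-1 array left 4 or 2 members called lower, and dropping mek-1 fasted 1 or 3 left 7 or 9. The R03G5.6 signal and that of 1 of the 2 sek-1 probe sets are low in the same mek-1 arrays, and their part in this group's difference was not tested.

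Genes of the intracellular pathogen response, which microsporidia, Orsay virus and proteotoxic stress turn on together, were lower in part. Of 27 measured members, 5 were lower (pals-26, skr-5, pals-6, pals-33 and skr-4), which is 18.5% against 1.76% of all genes, and 0 higher, with a median of -0.29. pals-26 read 5.63, 6.12 and 5.45 in mek-1 and 7.57 and 7.45 in mlk-1 animals (-1.77 ± 0.20, adjusted p = 0.00659). The 23 pals genes had a median of -0.15 and no higher member. The ubiquitin ligase adaptors of the Skp1-related family and the cullins included 9 lower members of 25 (36%, against the same 1.76%), all of them skr genes, and 0 higher, with a median of -0.29. skr-5 read 6.63, 6.71 and 6.60 against 7.83 and 7.65 (-1.09 ± 0.12, adjusted p = 0.00659). skr-10 (-1.04), skr-21 (-1.0) and skr-13 (-0.97) were of like size. skr genes that are close copies may share probes, so the 9 calls may not all be separate. All 5 calls of the pathogen response list and all 9 of the Skp1 list were lost with either mlk-1 array left out, and without mek-1 fasted 1 there remained 2 and 1.

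F-box proteins, the substrate-binding partners of the Skp1-related adaptors, form a large family in worms. Of 310 measured, 28 were lower (9.03%, against 1.76% of all genes) and 2 higher (0.286% of all genes), with a median of -0.13. fbxa-192 read 5.14, 4.74 and 5.09 in mek-1 and 6.78 and 6.96 in mlk-1 animals (-1.87 ± 0.15, adjusted p = 0.00197). fbxa-193 differed by -1.28 ± 0.12, fbxb-10 by -1.18 ± 0.14 and fbxb-26 by -1.16 ± 0.17, while fbxa-6 (1.02 ± 0.12) and fbxa-65 were the higher members. With 1 mlk-1 array left out, 1 F-box gene was still called lower in either case, and without mek-1 fasted 1, 6 were.

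Of 220 C-type lectins, which bind sugars and are often induced by bacteria, 11 were lower (5%, against 1.76% of all genes) and 1, clec-5, was higher, with a median of -0.02. clec-174 read 6.70, 6.51 and 6.83 in mek-1 and 9.06 and 8.55 in mlk-1 animals (-2.13 ± 0.18, adjusted p = 0.002), and clec-47 differed by -1.53 ± 0.14. clec-86, clec-174 and clec-85 kept their calls with each array left out. Of 16 lysozymes, ilys-2 was higher and lys-2 lower, and of 18 saposin-like genes only spp-27 was called.

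Gut proteases moved both ways. Of 58 lysosomal and gut proteases, 7 were lower (12%, against 1.76% of all genes) and 2 higher (0.286% of all genes), with a median of -0.05. The higher ones were cpr-1 and the aspartyl protease gene asp-11 (1.17 ± 0.21). The lower ones included asp-13, at 8.14, 8.78 and 8.69 in mek-1 and 10.01 and 10.36 in mlk-1 animals (-1.65 ± 0.21, adjusted p = 0.0114), asp-12 (-1.08 ± 0.13), the serine carboxypeptidase gene ctsa-1.2 (-0.97 ± 0.13) and asp-5 (-0.88 ± 0.14). The groups of asp-13 lay more than 1 log2 unit apart. No protease remained lower with either mlk-1 array left out, and 2 did without mek-1 fasted 1.

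Heat shock genes were lower in part. Of 13 measured inducible heat shock genes, 4 were lower (30.8%, against 1.76% of all genes) and 0 higher, with a median of -0.52. hsp-17 read 8.12, 7.86 and 7.72 in mek-1 and 9.47 and 9.68 in mlk-1 animals (-1.68 ± 0.15, adjusted p = 0.00335). The small heat shock gene hsp-16.41 (-1.05 ± 0.14), the inducible chaperone gene hsp-70 (-1.03 ± 0.14) and hsp-25 (-0.89 ± 0.12) were the other members called. Dropping the first mlk-1 array left 1 member called, dropping the second left 0, and dropping mek-1 fasted 1 left 1.

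Genes of metabolism and of insulin signalling showed single changes. Of 41 genes of fatty acid activation and beta-oxidation, acdh-1 and ech-9 were lower and cpt-5, a carnitine palmitoyltransferase gene, was higher (0.83 ± 0.15). ech-9, an enoyl-CoA hydratase gene, read 5.33, 5.3 and 4.89 in mek-1 and 7.31 and 7.40 in mlk-1 animals (-2.18 ± 0.16, adjusted p = 0.00116), with a wide gap between the strains, and its call held with each array left out. nhr-68, a nuclear receptor gene that acts in turning on acdh-1, was lower as well (-0.86 ± 0.14, adjusted p = 0.0263) and was 1 of 3 lower among 254 nuclear hormone receptors, with nhr-129 (-0.70) and nhr-114 (-0.65). That share of 1.18% is below the 1.76% of all genes. Of 24 insulin-like genes, ins-7 was higher and ins-11 and ins-35 (-0.83 ± 0.12) lower. ins-11 read 6.42, 6.32 and 6.49 against 8.84 and 8.32 (-2.17 ± 0.17, adjusted p = 0.00147), and its call held with each array left out. sod-3, the mitochondrial manganese superoxide dismutase gene and a target that DAF-16 raises, was lower (-0.95 ± 0.13, adjusted p = 0.0154). ins-7 and sod-3 were the 2 called of 17 DAF-16 targets, and both calls, as well as those of nhr-68, ins-35 and cpt-5, were lost with either mlk-1 array left out.

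Other lists held 1 to 3 calls. The transthyretin-related genes ttr-23 (-1.49), ttr-26 (-1.37) and ttr-46 (-0.78) were lower among 40. lbp-1 (-0.88), a lipid-binding protein gene, the UDP-glucuronosyltransferase gene ugt-44 (-1.11), the pyruvate kinase gene pyk-2 (-0.66), the choline kinase gene ckb-2 (-0.75), listed with endoplasmic reticulum stress genes, and sqst-1 (-0.63), which encodes the autophagy receptor p62, were each the only call of their list. The 64 UDP-glucuronosyltransferases otherwise leaned higher, with a median of 0.17 and 17 differences below 0. At an unadjusted p under 0.05, 12 of them were higher and 3 lower. Their mean deviation was 0.04, -0.09 and 0.31 in the mek-1 arrays and -0.07 and -0.19 in the mlk-1 arrays. The lean was thus largest in mek-1 fasted 3, and mek-1 fasted 2 lay below mlk-1 fasted 1. Of all 22548 probe sets, 2922 had an unadjusted p under 0.05 in the fasted contrast, in either direction. Of 30 short-chain dehydrogenases, dhs-26 was higher (1.09) and dhs-8 lower (-0.96). Collagen calls were 1 of 146, dpy-17 (-0.67, adjusted p = 0.0465), lost whichever array was left out. The calls of all these genes were lost with either mlk-1 array left out.

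Several basic programmes had no called member in the limma test. Their counts at an unadjusted p under 0.05 stand beside 2922 of all 22548 probe sets, in either direction. Among 62 cytosolic ribosomal proteins 0 were called, with 1 at an unadjusted p under 0.05, a median of 0.00 and a range from -0.29 to 0.17. Among 67 respiratory chain genes 0 were called, with 2 at an unadjusted p under 0.05, and among 33 proteasome subunits likewise 0 and 2. The 21 AP-1 and other stress transcription factor genes, which include candidate targets of KGB-1, had 0 called and 2 at an unadjusted p under 0.05. Of 43 glutathione S-transferases 0 were called, though 12 had an unadjusted p under 0.05, all lower, and of 34 histones 0 were called, with 18 such, all lower, and a median of -0.31. Vitellogenins and their receptor, 6 genes in all, had 0 called and 0 at an unadjusted p under 0.05.

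**Figure D5:**
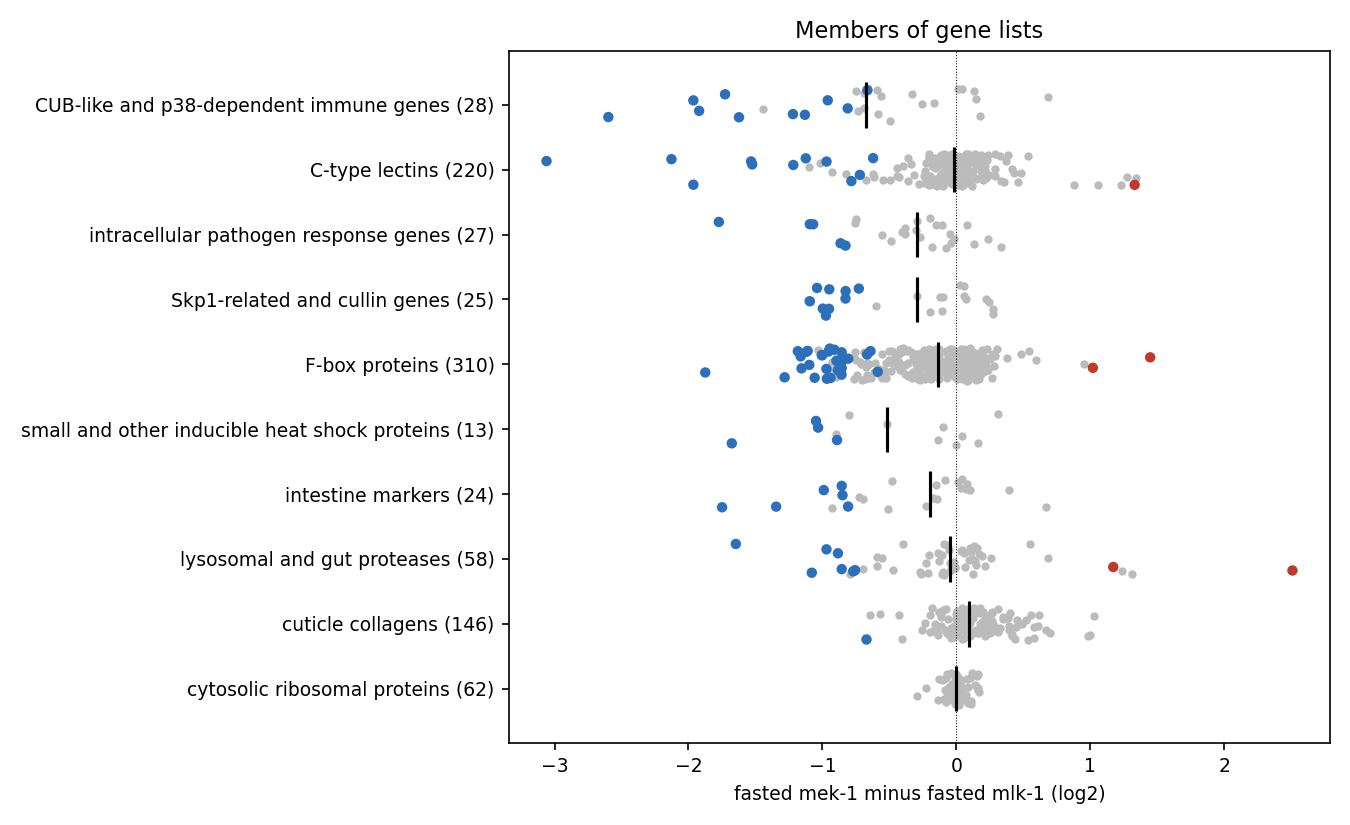
Strain differences in fasted animals (log2, mek-1 minus mlk-1) of the members of gene lists, 1 point per gene, with called members coloured and the median of each list marked. The CUB-like list has the lowest of the quoted medians (-0.68), while ribosomal proteins lie close to 0.

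Markers of tissues were set beside these lists, since in whole animals a smaller share of a tissue in the RNA and lower expression within it cannot be told apart. Of 24 intestine markers, 6 were lower (25%, against 1.76% of all genes) and 0 higher (0.286% of all genes), with a median of -0.20. They were act-5, the actin of the gut brush border, the gut intermediate filament genes ifd-2, ifb-2 and ifc-2, their organizer ifo-1, and the protease gene asp-4, which is also in the protease list. act-5 read 8.13, 7.85 and 7.49 in mek-1 and 9.39 and 9.75 in mlk-1 animals (-1.75 ± 0.20, adjusted p = 0.00805). Of the 24 markers only 16 had a difference below 0, and the highest was 0.67. The median of the list in fed animals was 0.08. The mean deviation of the whole intestine list was -0.04, -0.22 and -0.21 in the mek-1 arrays and 0.28 and 0.19 in the mlk-1 arrays, so every mek-1 array was below both. The immune, lectin, protease and pathogen response genes above are expressed largely in the gut, and the part of this marker shift in their differences was not tested. With either mlk-1 array left out, 0 intestine markers were called, and without mek-1 fasted 1, 2 were.

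Among the other tissues, 1 of 37 neuron markers was higher, unc-25 (0.72 ± 0.14), the enzyme that makes GABA, 1 of 57 sperm markers was lower, ssp-37 (-0.77 ± 0.13), and 1 of 44 early embryo markers was lower, sdz-25 (-1.29 ± 0.19). The sperm list as a whole leaned the other way, with a median of 0.19 and 13 of 57 differences below 0, and its 1.75% called lower stood beside 1.76% of all genes. Their calls were lost with either mlk-1 array left out. Early embryo markers had a mean deviation of -0.14, -0.01 and -0.22 in mek-1 and 0.12 and 0.25 in mlk-1 arrays. Of these 44 markers, 15 had an unadjusted p under 0.05, all lower, beside 2922 of all 22548 probe sets in either direction. Germline and oocyte markers, which check that these are egg-producing adults, averaged between 10.4 and 10.8 on every array, with 0 of 38 called and 2 at an unadjusted p under 0.05. Body wall muscle markers had 0 of 25 called and 6 at an unadjusted p under 0.05, all higher, with a median of 0.27. Their mean deviation was 0.18, -0.20 and 0.32 in mek-1 and -0.09 and -0.22 in mlk-1 arrays, so the strains overlapped. The median of this muscle list in fed animals was 0.83. Sperm markers of mek-1 fasted 3 deviated by 0.42, against -0.14 to -0.07 in the other fasted arrays.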

How the data were processed

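Total RNA was biotin-labelled by 3' in vitro transcription, per the labels, and read on arrays with Affymetrix-style probe sets. The deposited values are linear intensity, a single number for each probe set on each array, with a lowest value just above 16. How the authors summarised and normalized the probe sets is not stated in the labels. Gene names came from the platform annotation (20766 probe sets with 1 symbol, 887 with several, 895 with none), and 20701 of the 20766 matched a RefSeq gene of WBcel235.

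Array control probe sets (77) were dropped. log2 values of the 5 fasted arrays were fitted with limma 3.58.1 in R 4.3.3 (lmFit and eBayes, two-sided, Benjamini-Hochberg over 22548 probe sets). Before that, the code was run on simulated data. There, 98 of 100 probe sets changed by 1 log2 unit and 100 of 100 changed by 2 were recovered, with 17 false calls. The simulated noise was normal and independent, with the spreads of the fit itself. It held no deviation shared across an array, so this recovery does not carry over to the real arrays. Dependence on food was tested on all 10 arrays with 4 group means. Same-numbered fed and fasted arrays deviated together within each strain (r = 0.407, 0.639 and 0.555 in mek-1, 0.320 in mlk-1). The blocked count and adjusted p are therefore given beside those of the fit without the block. A gene took its probe set of highest mean (17118 genes). Named genes were the 15 largest called changes each way without overlap between groups, the cascade list, up to 4 called members per list and direction, the 6 largest changes with food of each sign, and the largest called probe set without 1 symbol in each direction. Exceptions, named after their values were seen, are the neighbours of mek-1 and mlk-1, and irg-4, skr-4, ifc-2 and ifo-1. The members and lists were chosen with earlier results of these data known. Alternatives were other constants, normalizations, filters, variance models and left-out arrays. No sequences are printed. Depth has no meaning here, and the number of arrays limits precision.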

Additional observations from a re-analysis of the deposited data

Results flagged for a closer look

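For 11 named genes the strain difference depended on food in the limma fit of all 10 arrays, which tests the fasted difference minus the fed difference. Unless stated, values here are from the fit without the replicate block. The change in the difference was -6.01 ± 0.25 for clx-1, -4.37 for Y57E12B.1, -3.30 for Y57E12B.4, -3.21 for smf-2, -2.63 for H02F09.3 and -2.23 for ins-11, all with high values in the fasted mlk-1 arrays. It was -1.17 for mek-1 (adjusted p = 0.0328, and 0.0292 with the block), where the fasted difference was -4.31 and the fed difference -3.15. That call was lost with a trended variance (adjusted p = 0.133), without the dimmest 30% (0.0562), and with 9 of the 10 arrays left out in turn (0.0614 to 0.221).

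The change was positive for 4 genes whose strain difference was larger in fed animals. F55G11.2, a CUB-like gene, read 5.4, 4.97 and 5.43 in fasted mek-1, 5.03 and 5.21 in fasted mlk-1, 4.98, 4.81 and 5.67 in fed mek-1 and 8.18 and 9.44 in fed mlk-1 animals, a change of 3.81 (adjusted p = 0.0219). The change was 3.01 for F55G11.8 (adjusted p = 0.0143), 3.00 for dod-22 (0.0402) and 1.53 for F49F1.5 (0.00836). With the replicate block the adjusted p was 0.00324 for F55G11.2, 0.000611 for F55G11.8, 0.0254 for dod-22 and 0.00693 for F49F1.5. In each of the 4 the fed mlk-1 arrays were the high ones. Each of the 4 lost its call with mlk-1 fasted 1 left out (adjusted p = 0.208, 0.112, 0.221 and 0.0859 in the order given).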

How the results depend on the processing

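Of 85 named genes called in fasted animals, 15 stayed past the threshold under each of the 16 alternatives that kept their probe set, and 0 changed sign. The counts of higher and lower probe sets (55 and 366) became 29 higher with a constant of 16 added before the log, 10 higher and 114 lower with a constant of 64, 94 higher with a trended and robust variance, and 223 higher and 724 lower with array weights. With the replicate number as a block they became 673 and 1244. Numbers pair only 2 arrays of each strain here (r = 0.294 and 0.142), so no pairing is shown and this count is not read as a weaker or stronger effect. Leaving out each array gave 5 to 105 higher and 33 to 450 lower. The constant pulls dim probe sets toward 0, and a left-out mlk-1 array leaves 1 in its group. For other settings the cause was not tested. The 18 probe sets with dependence on food became 10 without the dimmest 30% and 59 with the replicate block, and ranged from 6 to 34 with an array left out. Of the named genes, 63 lost their call without mlk-1 fasted 1, 66 without mlk-1 fasted 2, 40 without mek-1 fasted 1, 48 with the constant of 64, 20 with all 10 arrays in the fit, 16 with the constant of 16, 11 with median centring and 6 with quantile normalization. The difference of kgb-1 (-0.14) turned to 0.0073 with array weights (adjusted p = 0.985) and was called in neither. Signal near the lowest value of the table limits dim genes such as R03G5.6.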

Other observations

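Further groups were looked at after values of these arrays had been seen, and are given as descriptions, beside 2.04% of all genes called, 1.76% lower and 0.286% higher. Of 15 genes of the intestinal apical cytoskeleton, 6 were lower in fasted mek-1 animals, with a median of -0.30. Besides the 5 gut cytoskeleton genes among the intestine markers these included bbln-1, which keeps intermediate filaments at the gut lumen and read 7.26, 7.36 and 7.24 in mek-1 and 7.86 and 8.24 in mlk-1 animals (-0.76 ± 0.14, adjusted p = 0.0468). Of 23 claudin-like genes, 4 were lower. clc-1, the gene of a junction protein, read 8.12, 7.69 and 7.98 in mek-1 and 9.38 and 9.72 in mlk-1 animals (-1.62 ± 0.17, adjusted p = 0.00578), and clc-24 (-1.68 ± 0.28), clc-25 (-1.43 ± 0.27) and clc-27 (-0.76 ± 0.14) were the others. All mek-1 arrays of clc-1 lay below both mlk-1 arrays, a gap that 29.5% of all probe sets had in either direction. Among 17 tetraspanins tsp-1 (-1.79 ± 0.23, adjusted p = 0.0119) and tsp-2 (-1.36 ± 0.20, adjusted p = 0.0171) were lower, and among 12 galectins lec-10 (-1.42 ± 0.16, adjusted p = 0.00733) and lec-9 (-1.14 ± 0.20, adjusted p = 0.0384).

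Of 58 neuropeptide-like nlp genes 3 were lower. nlp-39 read 8.52, 8.56 and 8.54 in fasted mek-1 and 10.39 and 10.95 in fasted mlk-1 animals (-2.13 ± 0.17, adjusted p = 0.00176), and its fed difference was -2.78. nlp-40, which encodes the gut-released peptide of the defecation rhythm, differed by -1.16 ± 0.17 (adjusted p = 0.0162). The arrestin domain genes moved both ways, with 2 higher and 1 lower of 26, and of 103 BTB and MATH domain genes, which include other ubiquitin ligase adaptors, 6 were lower and 1 higher. Of 13 genes of propionate breakdown, acdh-1 and nhr-68 were the lower ones. The beta-N-acetylhexosaminidase gene hex-1 read 10.22, 10.19 and 9.32 in fasted mek-1 and 11.98 and 12.05 in fasted mlk-1 animals (-2.11 ± 0.26, adjusted p = 0.0102), with a fed difference of -1.82. Of the genes in these paragraphs with an adjusted p, only nlp-39 kept its call with each fasted array left out in turn (adjusted p between 0.000789 and 0.0174). With mlk-1 fasted 2 left out the others had an adjusted p between 0.0993 (clc-1) and 0.297 (bbln-1).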
